A study of Mus musculus with 17 samples.

Results

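The kappa light chain variable segment repertoire was described from the RNA of sorted mouse spleen B cells. Its members are the rows of the deposited count table whose gene symbol begins with Igkv and that hold at least 10 counts summed over the 17 libraries. This rule took 127 of the 160 Igkv rows and of the 55536 genes in the table. Of the rows left out, 18 had no count and 15 had 1 to 9 counts. At the edge of the rule, Igkv13-54-1 had 9 counts and was left out, and Igkv15-97 had 10 and was kept. The annotation calls 99 members variable genes and 28 pseudogenes, and the members fall into 20 families, named by the number between Igkv and the hyphen.

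Cells of 3 stages were sorted: naive, activated and from the germinal centre (GC). Donor mice were of 2 genotypes, WT (wild type) and p52ki (a p52 knock-in); p52 is an NF-kB protein processed from the product of Nfkb2. There were 3 libraries per group and 2 for p52ki GC cells, numbered 1, 3 and 4 in WT, 2, 3 and 5 in p52ki, and 2 and 5 in p52ki GC cells. The knock-in allele, the strain, the age of the mice, any immunisation and the sorting gates are not given. No label ties a replicate to its own animal, and every p-value here reflects only how far these samples spread, which may be technical. WT libraries carry the title numbers 1 to 12 and p52ki libraries 19 to 30, and an effect of that order cannot be told apart from genotype.

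A kappa light chain gene is assembled in a developing B cell by joining a V segment to a J segment, which is then spliced to the constant exon Igkc. The choice of V segment fixes most of the antigen-binding surface that the light chain contributes, and a cell that keeps a productive joint passes it to all its descendants. The share of each V segment among kappa transcripts therefore depends both on how many cells carry it and on how much light chain RNA each cell makes, and in RNA from pooled cells these cannot be told apart. In a germinal centre, few founder cells can give rise to many descendants, and plasma cells make far more immunoglobulin RNA than other B cells. The kappa locus is also the source of the name NF-kB, which was first described as a nuclear factor that binds the kappa enhancer in B cells.

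On GRCm38 the members span chromosome 6 from 67609713 to 70704177, and Igkj1 starts behind them at 70722562, followed by Igkc at 70726435 to 70726966. Both lie on the plus strand. Of the members, 53 lie on the plus strand, from which joining deletes the DNA in between, and 74 on the minus strand, from which joining inverts it. Exon 2 holds nearly all of the V domain. Its coding sequence is printed here for 7 of the segments that led a naive, activated or GC library or changed most on activation, because near-identical copies limit how reads can be assigned. Each line gives at most the last 300 bases of that exon, on the segment's own strand, from GENCODE release M21 transcripts on GRCm38. Capitals run from the last in-frame cysteine codon to the end of the exon. The third complementarity-determining region starts at the codon after that cysteine.
Igkv1-117: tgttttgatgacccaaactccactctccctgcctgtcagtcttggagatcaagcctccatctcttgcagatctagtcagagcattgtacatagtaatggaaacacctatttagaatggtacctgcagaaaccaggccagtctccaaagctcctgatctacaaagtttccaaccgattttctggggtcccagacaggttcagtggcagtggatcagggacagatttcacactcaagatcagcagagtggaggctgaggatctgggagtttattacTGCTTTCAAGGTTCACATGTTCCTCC
Igkv1-110: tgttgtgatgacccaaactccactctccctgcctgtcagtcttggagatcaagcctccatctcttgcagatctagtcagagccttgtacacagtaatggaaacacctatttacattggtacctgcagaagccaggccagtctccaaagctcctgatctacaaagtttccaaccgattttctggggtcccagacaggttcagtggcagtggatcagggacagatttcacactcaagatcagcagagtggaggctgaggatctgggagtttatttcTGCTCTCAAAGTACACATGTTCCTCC
Igkv1-135: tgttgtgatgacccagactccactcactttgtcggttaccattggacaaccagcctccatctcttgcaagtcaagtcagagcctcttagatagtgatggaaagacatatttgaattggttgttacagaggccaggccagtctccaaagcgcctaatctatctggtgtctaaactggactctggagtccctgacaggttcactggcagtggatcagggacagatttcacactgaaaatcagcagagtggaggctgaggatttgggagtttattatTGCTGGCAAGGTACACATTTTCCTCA
Igkv14-126: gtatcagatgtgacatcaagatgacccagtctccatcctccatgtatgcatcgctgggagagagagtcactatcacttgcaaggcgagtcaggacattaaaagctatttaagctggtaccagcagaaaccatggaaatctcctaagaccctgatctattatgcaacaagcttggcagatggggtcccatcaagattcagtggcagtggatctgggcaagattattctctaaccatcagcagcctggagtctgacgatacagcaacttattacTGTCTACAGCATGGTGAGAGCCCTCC
Igkv4-57-1: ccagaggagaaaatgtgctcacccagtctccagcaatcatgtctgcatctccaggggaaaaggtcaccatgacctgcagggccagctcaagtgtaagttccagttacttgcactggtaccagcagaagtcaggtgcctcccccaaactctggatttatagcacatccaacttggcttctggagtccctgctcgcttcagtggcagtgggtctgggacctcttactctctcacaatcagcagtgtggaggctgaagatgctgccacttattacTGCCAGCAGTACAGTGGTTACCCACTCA
Igkv8-30: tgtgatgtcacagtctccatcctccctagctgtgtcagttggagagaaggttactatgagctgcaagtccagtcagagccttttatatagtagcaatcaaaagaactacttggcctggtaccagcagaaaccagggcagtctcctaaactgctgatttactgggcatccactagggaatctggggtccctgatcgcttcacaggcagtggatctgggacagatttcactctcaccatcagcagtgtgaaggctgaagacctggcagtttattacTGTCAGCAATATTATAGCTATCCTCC
Igkv3-4: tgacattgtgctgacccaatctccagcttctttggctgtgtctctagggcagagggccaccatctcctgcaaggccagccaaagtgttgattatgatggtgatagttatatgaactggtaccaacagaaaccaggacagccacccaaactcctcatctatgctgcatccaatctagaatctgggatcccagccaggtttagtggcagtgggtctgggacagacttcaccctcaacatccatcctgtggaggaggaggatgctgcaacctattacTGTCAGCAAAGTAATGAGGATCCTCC
The first pair, Igkv1-117 at chr6:68121528-68121827 and Igkv1-110 at chr6:68270968-68271267, were 96.8% identical over the whole exon 2 coding sequence, with 10 mismatches in 313 bases. Igkv1-135 at chr6:67610209-67610508 was 79.6% identical to Igkv1-117. Igkv14-126 lies at chr6:67896345-67896642, and these 4 are on the plus strand, as is Igkv3-4 at chr6:70672078-70672377. Igkv4-57-1 at chr6:69544359-69544658 and Igkv8-30 at chr6:70117061-70117360 are on the minus strand. Of the 127 members, 47 shared at least one 100-base window with another Igkv transcript. Igkv6-20 and Igkv3-11 shared over 50% of their windows, so counts for these are uncertain. Igkv6-29 shared 47.7% and Igkv13-84 and Igkv13-85 37.9% each, so their counts are also less certain.

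Total counts ran from 4067281 to 10036347 per library, and the Igkv rows took 8450 (WT GC replicate 1) to 84651 counts (WT activated replicate 4). The B cell list (Cd79a, Cd79b, Ms4a1, Pax5, Cd22) summed to 8521 to 19070 CPM (counts scaled to 1000000 per library) in every library. The GC list (Bcl6, S1pr2, Mef2b, Rgs13, Fas, Mki67) summed to 63.1 to 75.8 CPM in naive, 73.2 to 210.3 in activated and 875 to 1886 CPM in GC libraries, as the labels say. Fewer than 14000 genes were detected in 3 GC libraries (WT GC replicate 3, and both p52ki GC libraries), against 16745 or more elsewhere. Some results on WT GC cells are therefore also given without replicate 3. Leaving out all 3 libraries removes the whole p52ki GC group, so results on p52ki GC cells could not be given without them.

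The summed Igkv level was higher in most activated than in naive libraries and differed widely among WT GC libraries. In naive WT replicates 1, 3 and 4 the Igkv rows summed to 4795, 3391 and 3860 CPM, and in naive p52ki replicates 2, 3 and 5 to 3486, 4547 and 3211 CPM. The activated libraries had 11230, 4708 and 10340 CPM in WT and 5480, 9492 and 5261 CPM in p52ki, above the naive libraries of the same genotype but for WT activated replicate 3, which lay below the highest naive value. WT GC libraries had 1084, 5216 and 2211 CPM, and p52ki GC libraries had 5871 and 5403 CPM. The groups overlap in WT GC and naive cells, and both p52ki GC libraries lay above all 3 WT GC libraries. Igkc, the constant exon spliced to every one of these segments, had the same lowest and highest groups in GC cells, with 3288, 14710 and 6199 CPM in WT GC cells and 16860 and 16350 CPM in p52ki GC cells. Its p52ki minus WT difference in GC cells was not called.

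**Figure D1:**
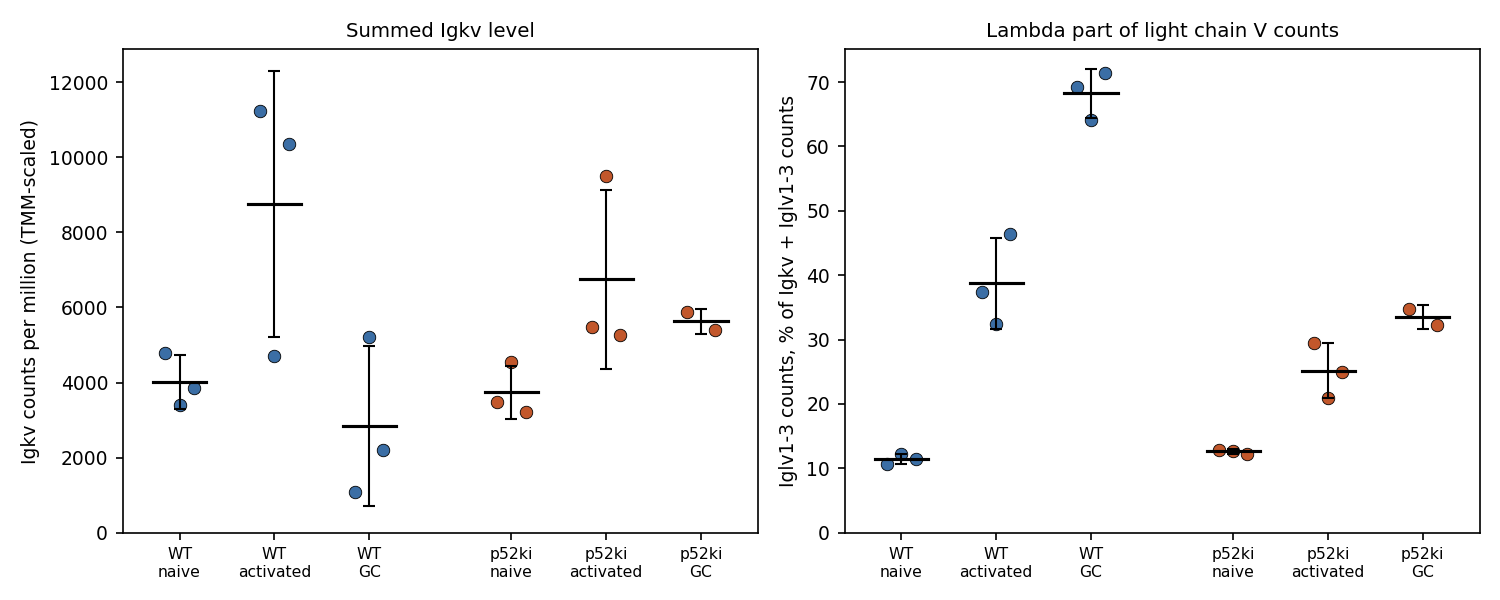
Left, summed Igkv CPM in each library (points; 3 per group, 2 for p52ki GC), with the mean and SD per group; right, counts of the lambda segments Iglv1 to Iglv3 as a percent of Igkv plus lambda V counts. WT GC replicates 1 and 4 have the lowest Igkv levels, and lambda takes 64.1% to 71.4% in WT GC libraries against 32.2% and 34.8% in p52ki GC libraries.

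Kappa competes with lambda, the other light chain type, of which mice have few V segments. The lambda segments Iglv1, Iglv2 and Iglv3 took 10.6% to 12.9% of light chain V counts in the 6 naive libraries. Activated WT libraries had 37.4%, 32.5% and 46.4% lambda, and activated p52ki libraries had 29.5%, 21% and 25%. In GC cells they took 69.2%, 64.1% and 71.4% in WT and 34.8% and 32.2% in p52ki, and the genotypes did not overlap in either stage.

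In naive cells the repertoire was nearly the same in every library. The segments with the largest mean share of Igkv counts were Igkv6-15 (5.69% ± 1.21, SD, n = 6), Igkv1-117 (4.82% ± 0.319), Igkv10-96 (4.80% ± 0.136) and Igkv19-93 (4.35% ± 0.188). They were followed by Igkv1-135 (3.83% ± 0.166), Igkv17-127 (3.67% ± 0.223), Igkv6-23 (3.38% ± 0.154) and Igkv1-110 (3.31% ± 0.273). Neighbours in this order differ by less than the larger of their SDs except for Igkv10-96 with Igkv19-93, Igkv19-93 with Igkv1-135, and Igkv17-127 with Igkv6-23. Exons of these 8 differ little in length, and per kilobase of exon Igkv6-15, Igkv10-96 and Igkv19-93 came first at 6.04%, 4.93% and 4.42%. A mean share over 1% was found for 31 members, which together held 74.1% of Igkv counts.

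Igkv6-15 took 5.23%, 4.88% and 8.10% in WT naive replicates 1, 3 and 4 and 5.03%, 5.59% and 5.32% in p52ki replicates 2, 3 and 5. WT naive replicate 4 stands above the other 5 libraries, and it accounts for the wide SD. Igkv10-96, which encodes the light chain of the classic anti-arsonate antibodies, took 4.64%, 4.68% and 4.85% in WT and 5.02%, 4.84% and 4.80% in p52ki. Its close relatives are used less: Igkv10-94 took 1.24% to 1.52% and Igkv10-95 0.165% to 0.26% in the naive libraries.

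Evenness was summarised as the effective number of segments, the exponential of the Shannon entropy of the shares, which equals 127 if all members are used alike. It was 56.5, 57.8 and 54.2 in WT naive libraries and 56.6, 56.5 and 56.8 in p52ki naive libraries. The activated libraries had 59.1, 54.4 and 56.7 in WT and 55.9, 56.8 and 56.9 in p52ki. Naive and activated libraries overlap in both genotypes, with group means that differ by 0.57 (WT) and -0.09 (p52ki) segments. In GC cells it was 52.8, 39.2 and 54.9 in WT and 42.3 and 47.5 in p52ki.

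The GC libraries were thus less even than activated libraries, with a difference of -7.81 segments in WT, where the groups overlap, and of -11.6 in p52ki, where they do not. Without WT GC replicate 3 the WT difference was -2.92. The p52ki GC mean was 4.01 below the WT GC mean, within the range of the WT libraries. Between libraries with few detected genes alone, p52ki GC replicates 2 and 5 lay 5.75 above WT GC replicate 3. In all GC libraries 84 to 109 members were detected, 84, 88 and 95 in the 3 libraries with few detected genes, against 113 to 124 in naive and activated libraries. Thinned to 8450 Igkv counts, the effective numbers of the GC libraries were 52.8, 39.1 and 53.5 in WT and 42.1 and 47.9 in p52ki. The part of gene detection in the evenness was not tested.

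**Figure D2:**
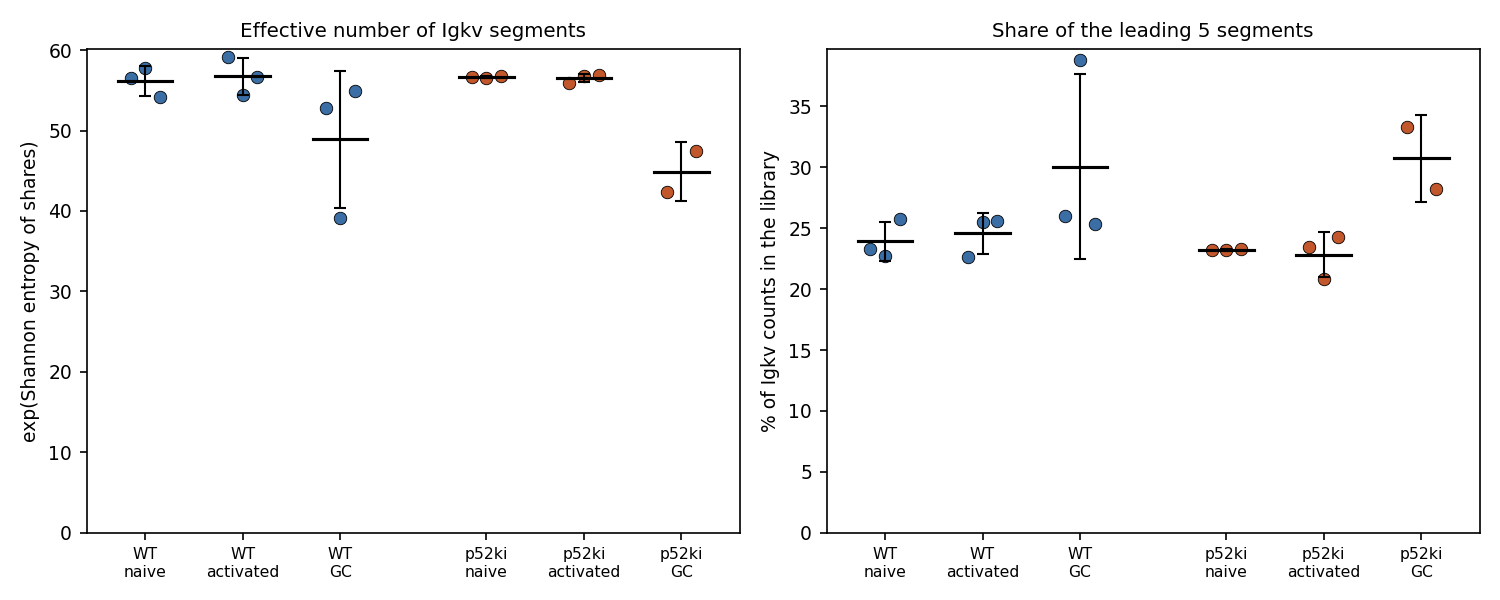
Left, effective number of Igkv segments per library; right, summed share of the leading 5 segments per library, in percent of Igkv counts; points are libraries, bars the mean and SD. The 12 naive and activated libraries lie between 54.2 and 59.1 segments, and WT GC replicate 3 and both p52ki GC libraries lie below 48.

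The overlap of 2 repertoires, the sum over segments of the smaller share, was 93.1% to 96.0% in the 15 pairs of naive libraries, with WT and p52ki pairs at 93.6% to 95.3%. It was 80.3% to 92.1% among activated libraries and 52% to 73.2% among GC libraries. Naive and activated libraries shared 73.0% to 79.5% within WT and 80.7% to 83.7% within p52ki, so p52ki activated libraries lay closer to their naive counterparts. WT GC libraries shared 62.6% to 72.2% with WT activated and 61.3% to 67.9% with WT naive libraries. The p52ki GC libraries shared 59.6% to 64.8% with p52ki activated and 63.5% to 72.6% with p52ki naive libraries. Within a genotype, the median overlap of libraries with the same number and with other numbers was 79.8% and 80.2% for naive with activated, 64.4% and 64.6% for activated with GC, and 66% and 65.6% for naive with GC.

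Of the p52ki GC libraries, replicate 5 shared 71.5% to 72.6% with the naive libraries of both genotypes, above every WT GC library. Replicate 2 shared 63.1% to 64.6%, below WT GC replicates 1 and 4. The 5 genes of the naive follicular list (Fcer2a, Ighd, Ccr7, Cr2, Klf2) were called higher in p52ki than in WT GC cells (16% of all genes were called, 3.75% as higher), with none at 0, and their summed level was 554 to 758 CPM in WT and 1538 to 1735 CPM in p52ki. It was 6667 to 7891 CPM in naive libraries. The list was thus higher in both p52ki GC libraries, of which 1 lay closer to naive libraries than WT GC libraries did, and its part in the overlaps was not tested.

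**Figure D3:**
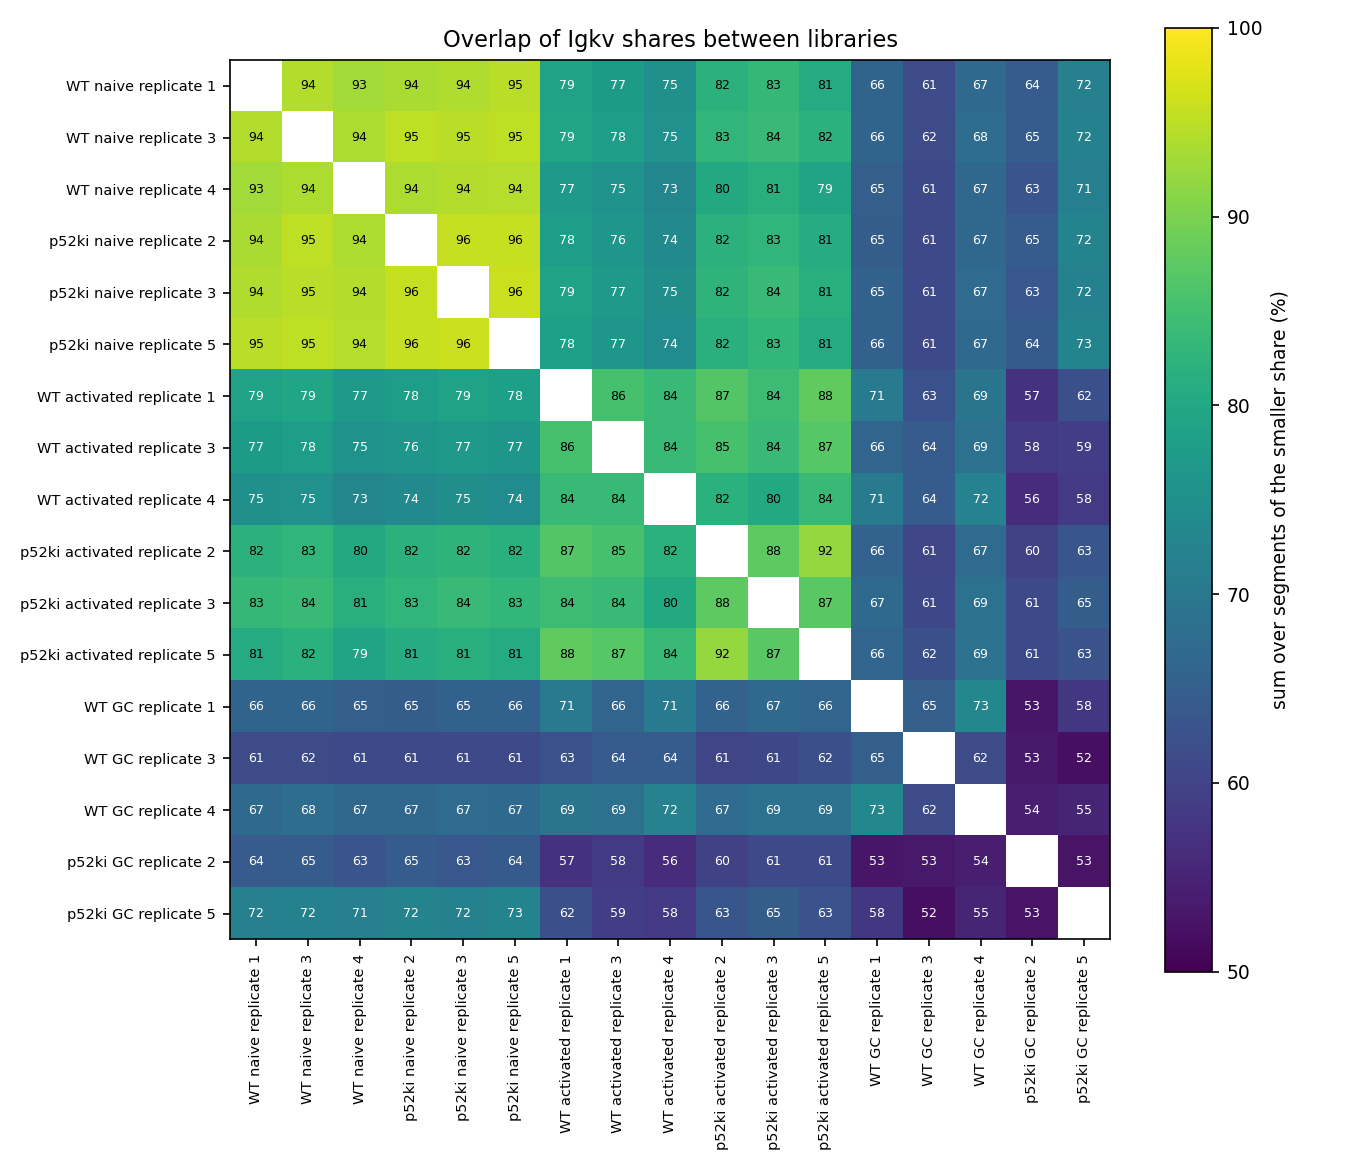
Heat map of the overlap of Igkv shares (sum over segments of the smaller share, percent) between each pair of the 17 libraries. Naive libraries form a block at 93.1% to 96.0%, activated libraries one at 80.3% to 92.1%, and GC libraries share 52% to 73.2% with each other.

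The shares of a set of segments did not overlap between naive and activated libraries taken over both genotypes. A common direction in both genotypes follows from how these members were picked. Over the 6 activated against the 6 naive libraries, the shares of 11 of 108 tested members lay wholly above (10.2%, against 3.54% of all genes) and those of 13 wholly below (12%, against 2.23% of all genes). The former were Igkv1-135, Igkv14-126, Igkv1-122, Igkv9-120, Igkv2-112, Igkv4-86, Igkv4-59, Igkv7-33, Igkv8-30, Igkv8-27 and Igkv8-24. The latter included Igkv6-15, Igkv6-17, Igkv6-23, Igkv6-25 and Igkv6-32, which are 5 of the 9 members of family 6, with Igkv10-96, Igkv19-93 and Igkv17-121. The shares over all genes compare other genes by CPM and members by their share of Igkv counts, so the measures are not the same. The 108 members are those that passed the filter on low counts.

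Igkv1-135, the member farthest from the J segments, led 5 of the 6 activated libraries. Its share was 3.87%, 4.02% and 3.86% in WT naive and 5.62%, 6.61% and 5.66% in WT activated libraries, and 3.52%, 3.84% and 3.87% in p52ki naive and 6.44%, 5.74% and 7.16% in p52ki activated libraries. The stages did not overlap in either genotype. The remaining activated library, WT replicate 4, was led by Igkv1-110 at 7.08%. Igkv8-24 took 1.45% to 1.69% in naive and 2.41% to 3.13% in activated libraries.

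Igkv14-126 encodes the light chain that pairs with Ighv11-2 in the phosphatidylcholine receptors of B-1 cells. Its level was 21.1, 34.3 and 21.9 CPM in WT naive and 179, 232 and 168 CPM in WT activated libraries. In p52ki it was 23.5, 24.5 and 14.5 CPM in naive and 71.4, 126 and 75.8 CPM in activated libraries, and in neither genotype did the stages overlap. As a share of Igkv counts it stood at 4.92% in WT activated replicate 3 and at 1.30% to 1.63% in the other 5 activated libraries, against 0.439% to 1.01% in naive libraries.

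Ighv11-2 stood at 1.71 to 9.34 CPM in naive libraries, at 41.3, 87.6 and 60.5 CPM in WT activated and at 26.5, 34.1 and 19.7 CPM in p52ki activated libraries. Its WT change was 3.61 (log2, SE 0.802, adjusted p = 0.094) and was not called. The other receptor of this kind uses Igkv4-91 with Ighv12-3. Igkv4-91 took 1.72% to 1.97% in WT activated libraries but 0.758% to 0.768% in p52ki activated libraries, against 0.779% to 0.987% in naive ones. Ighv12-3 had 2.32 ± 0.187 CPM in naive and 13.8 ± 3.76 CPM in activated WT cells, and 2.46 ± 0.578 and 7.92 ± 2.83 CPM in p52ki (SD, n = 3 each). Neither of its changes was called (log2 2.56 and 1.68, adjusted p = 0.546 and 1). The marginal zone and B-1 list of 10 genes summed to 1354 to 1796 CPM in naive and 2298 to 2921 CPM in activated libraries with no gene at 0 throughout, and its part in these changes was not tested.

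**Figure D4:**
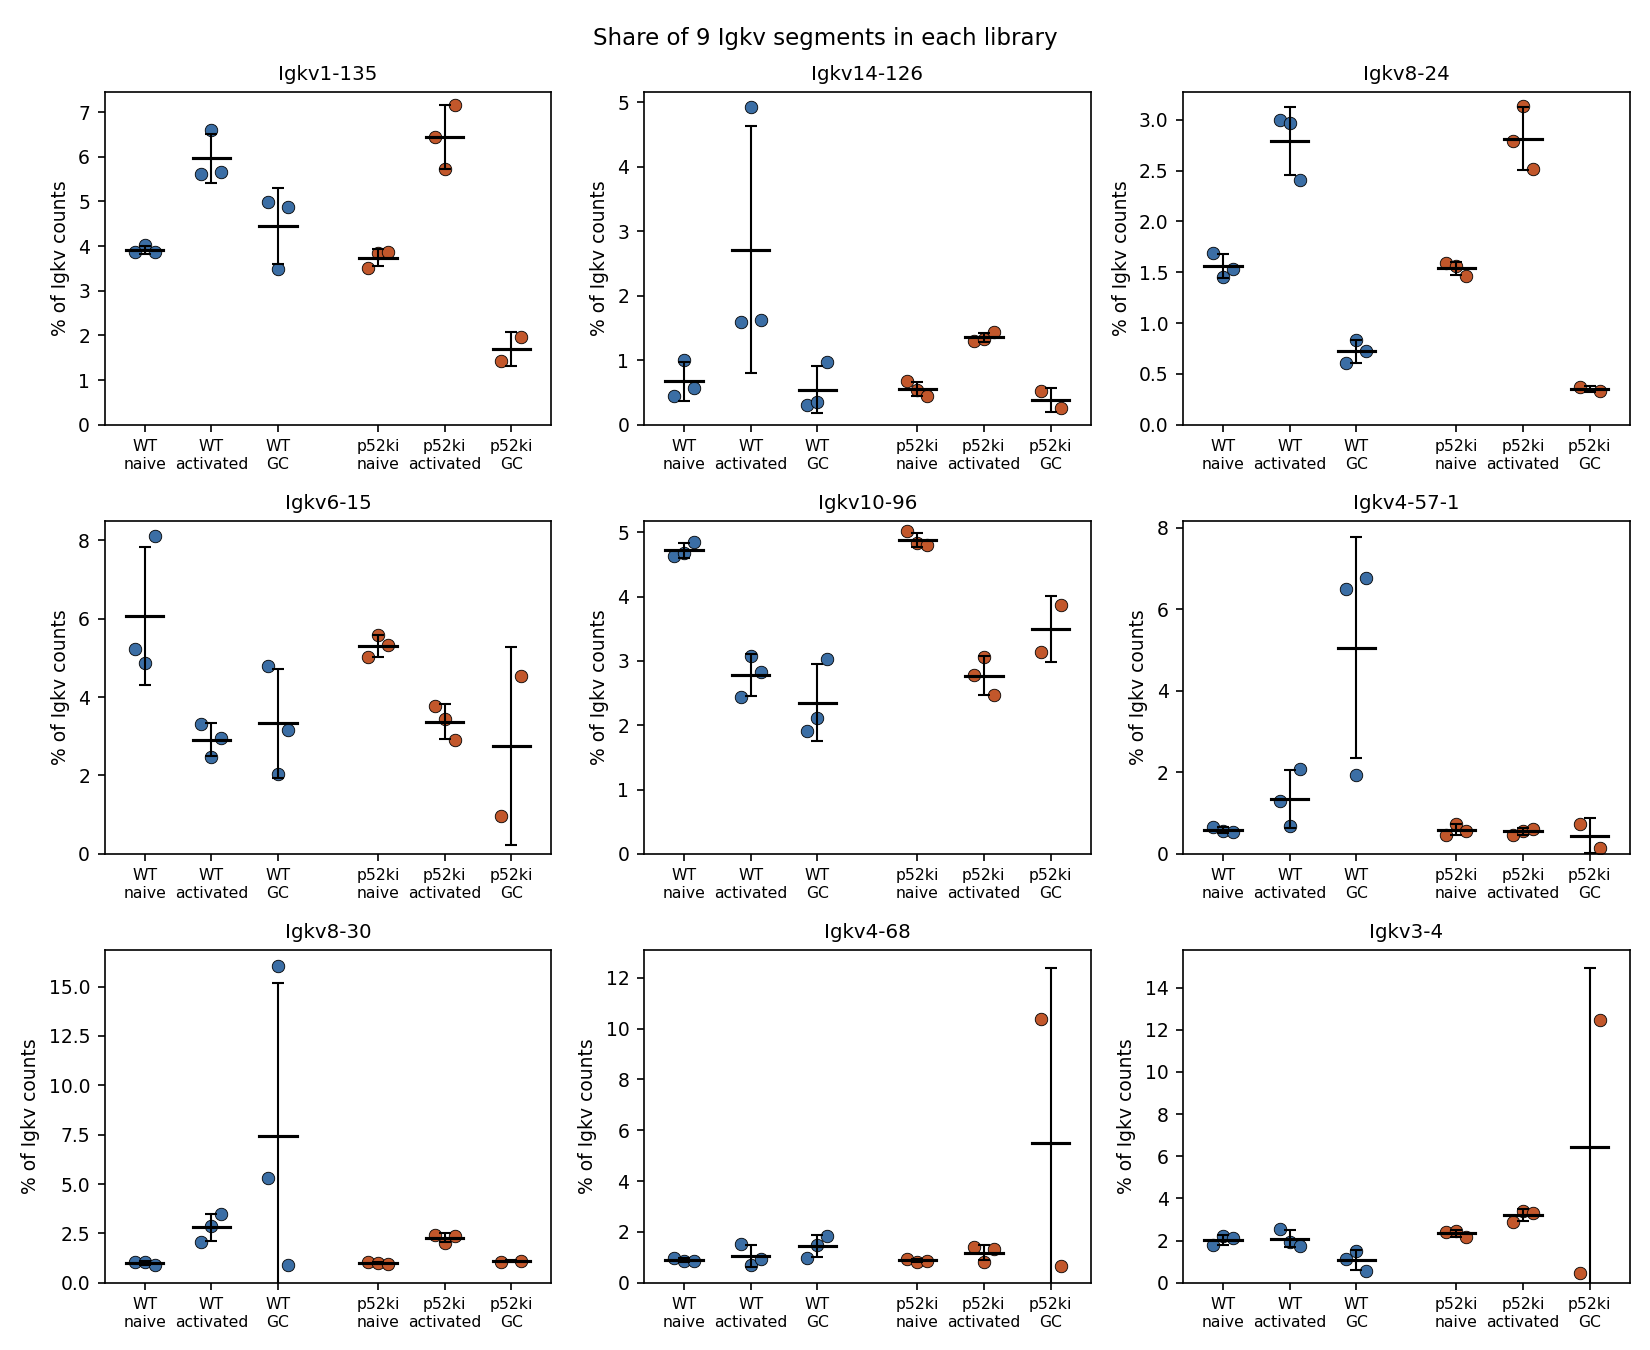
Share of Igkv counts (percent) of 9 segments in each library; points are libraries, bars the mean and SD (n = 3, 2 for p52ki GC; SD bars are cut off at 0). Igkv1-135 and Igkv8-24 are higher and Igkv6-15 and Igkv10-96 lower in activated than in naive libraries, and Igkv8-30, Igkv4-68 and Igkv3-4 each peak in a single GC library.

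The test across genes called few of these changes. Every adjusted p-value comes from the quasi-likelihood test of edgeR, adjusted by Benjamini and Hochberg's method over 15352 genes, and a member was called at an adjusted p under 0.05. In WT, 1 of 108 members was higher in activated than in naive cells and none lower, where 0.319% of all genes were called, 0.254% as higher and 0.0651% as lower. The called member was Igkv14-126, with a log2 change of 2.90 (SE 0.535, adjusted p = 0.03), and it was not called with a replicate block (adjusted p = 0.069) or without any single one of the 6 libraries (0.069 to 0.244). Without the 3 GC libraries with few detected genes in the fit, 36 were called higher in WT and 10 in p52ki. The share of all genes called in that fit was not recorded, so these counts have nothing to be set against. The median member changed by 1.15 in WT, against 0.00 over all genes, with 102 positive and 6 negative values.

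In p52ki no member was called (0.117% of all genes, 0.0847% as higher and 0.0326% as lower). By edgeR, 19 of 108 members had an unadjusted p under 0.05, as did 614 of all 15352 genes. DESeq2 called 3 members and limma voom 29. The shares of all genes called by DESeq2 and limma voom were not recorded. The median by edgeR was 0.79, again with 102 positive. Igkv1-135 had the smallest p there, at 141 ± 29.6 CPM in naive and 425 ± 104 CPM in activated cells (SD, n = 3 each) and a log2 change of 1.6 (SE 0.37, adjusted p = 0.187). With Igkv rows scaled to summed Igkv counts, which tests the share, Igkv6-25 was called lower in WT, by -1.78 (SE 0.316, adjusted p = 0.022; 0.332% of all genes), and no member was called in p52ki.

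Igkv6-25 took 1.31%, 1.28% and 1.27% in WT naive and 0.396%, 0.355% and 0.372% in WT activated libraries, with no overlap. In p52ki it took 1.04%, 1.05% and 1.17% in naive and 0.533%, 0.932% and 0.675% in activated libraries. As a level it changed by -0.64 in WT (SE 0.482, adjusted p = 1), where the median member changed by 1.15. Family 6 as a whole took 16.7% ± 1.67 of Igkv counts in naive and 8.88% ± 1.12 in activated WT cells, and 15.5% ± 0.0517 and 11.4% ± 1.58 in p52ki (SD, n = 3 each).

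Other families differed between the stages without overlap in either genotype. The mean share of family 1 was 13.2% in naive and 18.7% in activated WT cells and 12.5% and 16.8% in p52ki, and that of family 8 was 6.83% and 11.4% in WT and 6.76% and 10.8% in p52ki. Family 10 took 6.34% and 4.04% in WT and 6.44% and 3.81% in p52ki. The summed level of the 12 genes of the plasma cell list also differed between the stages, at 784 to 930 CPM in naive, 2712 to 10140 in WT activated and 2248 to 4155 CPM in p52ki activated libraries. Much of this was Jchain, the joining chain of secreted antibodies, with means of 16.4 CPM in naive and 4347 CPM in activated WT cells and 17.0 and 1899 CPM in p52ki, while Irf4 had 71.0 and 73.1 CPM in WT and 88.9 and 80.5 CPM in p52ki. Tnfrsf17 was at 0 in all WT naive libraries. Of the 12 genes, 4 were called higher in WT (0.254% of all genes) and 1 in p52ki (0.0847% of all genes). The part of plasma cells in the shares of activated libraries was not tested.

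By level, in the fit over all libraries, more Igkv segments were called lower from activated to GC cells in WT than in p52ki. As shares, fewer were called lower in WT than in p52ki. Fewer of all genes were also called in WT (13.3%) than in p52ki (25.7%) in that fit, so this order is not particular to the segments. In WT, 48 of 108 members were lower and none higher than in activated cells (44.4%, where 13.6% of all genes were called, 5.8% as higher and 7.75% as lower), and the median member changed by -1.96 against -0.13 over all genes. With the groups compared alone, 7 were called lower in WT, and 11 were called in either direction in p52ki. In p52ki 18 were lower and 1 higher (17.6%, against 25.6% of all genes, 6.34% as higher and 19.3% as lower), with a median of -0.59 against -0.41. As shares of Igkv counts, 4 were higher and 11 lower in WT (13.3% of all genes called) and 8 higher and 17 lower in p52ki (25.7%). When single libraries were left out, 21 of the 48 WT calls and 8 of the 19 p52ki calls remained in every case.

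Igkv1-117 had the smallest p of any member in WT. Its level was 565, 232 and 668 CPM in activated and 33.3, 49.1 and 42.9 CPM in GC libraries, with no overlap and a log2 change of -3.55 (SE 0.369, adjusted p = 3.89e-05). In p52ki it was 294, 433 and 275 CPM in activated and 153 and 103 CPM in GC libraries, a change of -1.38 (SE 0.391, adjusted p = 0.02). Its share was 4.56% to 6.47% in all activated and 0.941% to 3.08% in all GC libraries.

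Igkv14-126 was called lower in both genotypes, by -3.74 in WT (SE 0.558, adjusted p = 0.000444) and -2.05 in p52ki (SE 0.608, adjusted p = 0.024). It stood at 3.33, 18.5 and 21.4 CPM in WT GC and 30.3 and 13.9 CPM in p52ki GC libraries. Igkv8-24 and Igkv1-135 were also called lower in both. Igkv8-24 changed by -3.47 in WT (SE 0.567) and -3.29 in p52ki (SE 0.667), and its share was 0.604%, 0.835% and 0.728% in WT GC and 0.375% and 0.328% in p52ki GC libraries, below every naive and activated library.

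The other named segments that were called lower in WT were Igkv1-99, Igkv2-109, Igkv3-5 and Igkv1-88, with log2 changes of -4.32 to -3.56. In p52ki they were Igkv6-20, Igkv4-58 and Igkv8-27, with changes of -2.62 to -2.35. Igkv6-20, which shares over 50% of its windows with another segment, was unusually high in p52ki activated replicate 2, at 3.96% of Igkv counts against 0.859% and 1.34% in the other p52ki activated libraries. The member called higher in p52ki was Igkv4-54, at 2.74, 3.52 and 4.53 CPM in activated and 160 and 12.1 CPM in GC libraries, a change of 4.57 (SE 0.823, adjusted p = 0.00175).

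Over both genotypes, the shares of 14 members lay lower in all GC than in all activated libraries (13.0%, against 9.41% of all genes), and 1 lay higher (0.926%, against 3.81%). The latter was Igkv12-41, at 0.374% to 0.545% in activated and 0.879% to 1.29% in GC libraries, close to its naive range of 0.86% to 1.09%. Against naive cells 8 lay lower (7.41%, against 13.2% of all genes) and none higher. These percentages lie near or below those over all genes, which again use CPM for other genes.

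The 5 GC libraries were led by 4 different segments. In WT GC replicates 1 and 4 the leader was Igkv4-57-1, with 6.49% (95% Wilson interval 5.98% to 7.03%) and 6.77% (6.43% to 7.12%), against 1.93% in WT GC replicate 3 and a naive mean of 0.587%. WT GC replicate 3 was led by Igkv8-30 with 16.0% (15.6% to 16.5%), followed by Igkv3-2 with 7.92% and Igkv4-91 with 7.27%. Igkv8-30 took 5.30% and 0.919% in the other WT GC libraries and 1.04% and 1.12% in p52ki GC libraries. The intervals cover counting error only, since amplified copies of a molecule are counted as separate reads.

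The p52ki GC libraries had other leaders. Replicate 2 was led by Igkv4-68 with 10.4% (10.01% to 10.8%), Igkv14-111 with 7.55% and Igkv19-93 with 6.90%. Replicate 5 was led by Igkv3-4 with 12.4% (12.1% to 12.8%), which took 0.466% in replicate 2. Igkv4-68 took 0.65% in replicate 5 and 0.982% to 1.83% in WT GC libraries. Each of these leaders is thus high in 1 of 2 p52ki GC libraries.

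Segments at least 4 times their naive mean share and at least 1 percentage point above it numbered 5, 3 and 4 in WT GC replicates 1, 3 and 4 and 2 in each p52ki GC library. Together they held 18.98%, 31.2% and 11.7% of Igkv counts in WT and 13.1% and 14.4% in p52ki. Each WT activated library had 1 such segment (Igkv4-70, Igkv14-126 and Igkv4-86), and the 3 p52ki activated and 6 naive libraries had none. Among those of the GC libraries, Igkv4-73 in WT GC replicate 1 and Igkv4-60 and Igkv4-77 in WT GC replicate 4 are annotated as pseudogenes. Pseudogenes together took 2.27% and 4.04% of Igkv counts in these libraries and 0.301% to 0.892% in all others. Family 4, to which Igkv4-57-1, Igkv4-68 and Igkv4-91 belong, took 25.9% ± 2.68 (SD, n = 3) in WT GC and 19.3% ± 2.24 (n = 2) in p52ki GC cells, against 13.1% to 13.6% in the naive libraries. Family 8, with Igkv8-24 and Igkv8-30, took 12.3% ± 5.97 in WT GC and 4.35% ± 1.14 in p52ki GC cells, and these do not overlap.

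**Figure D5:**
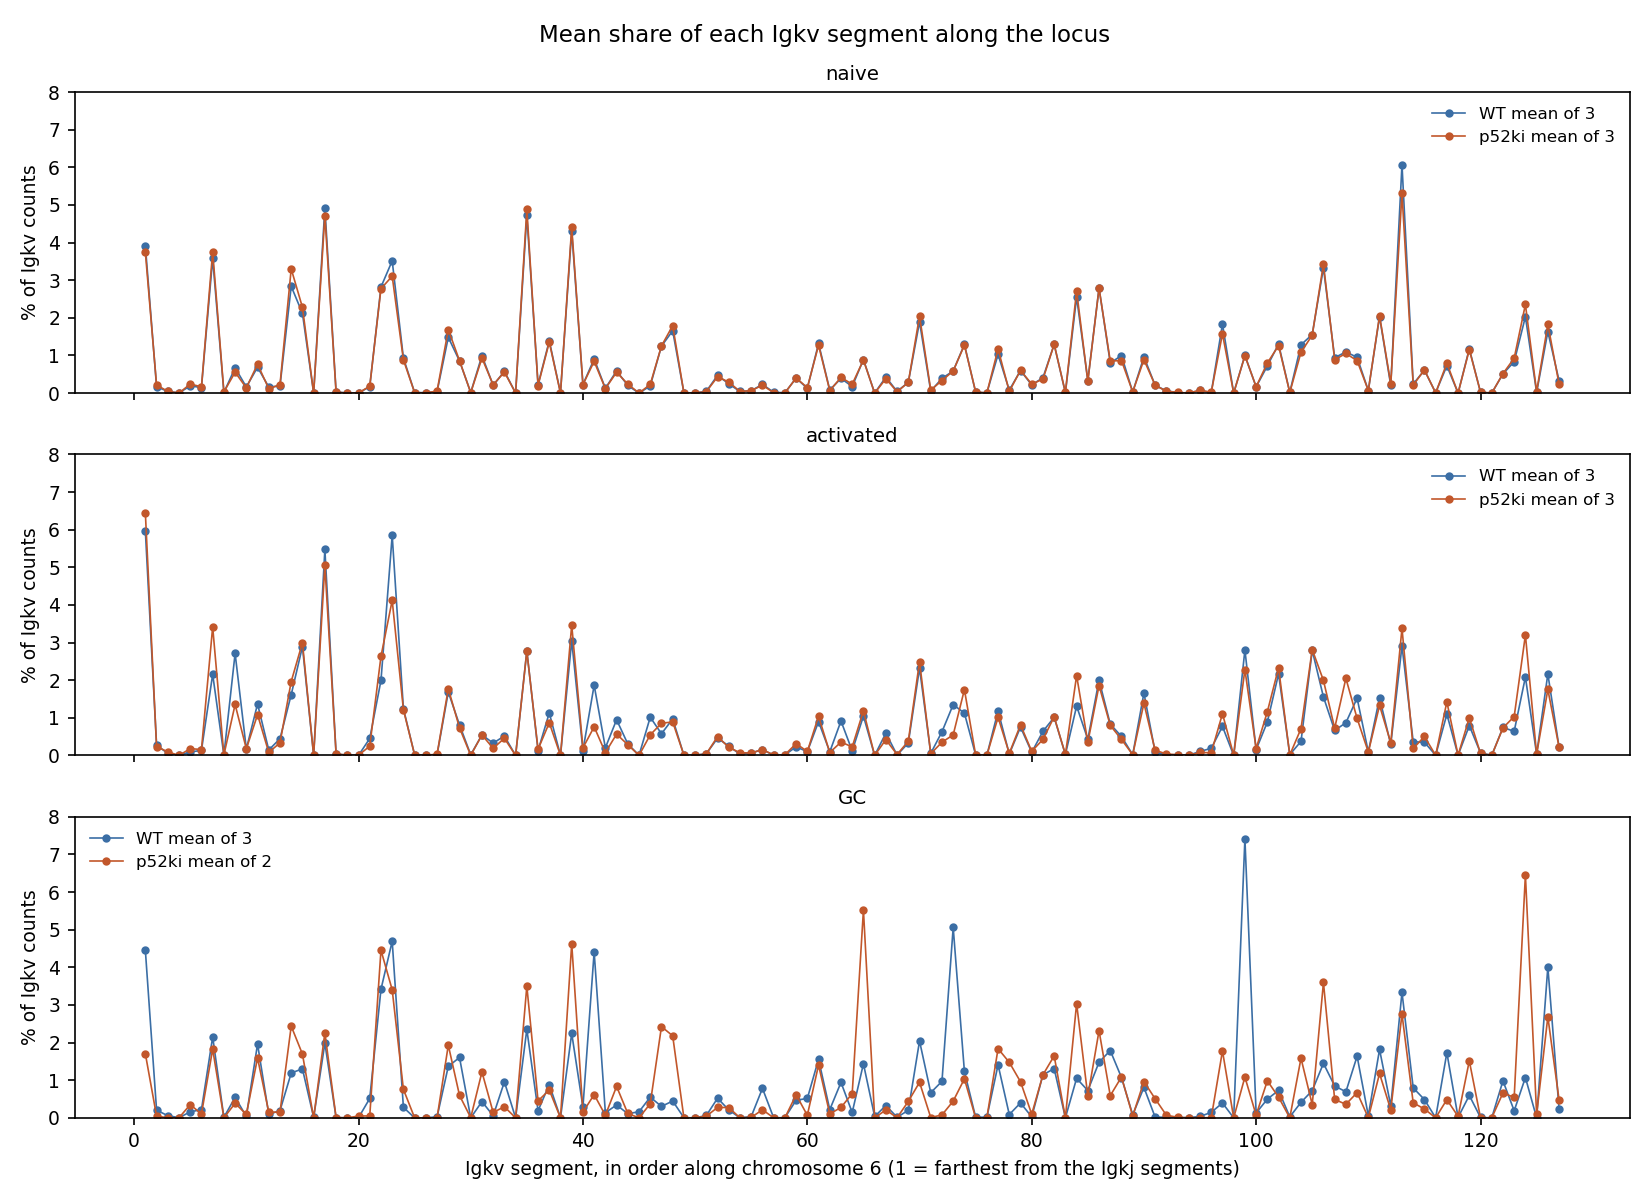
Mean share of Igkv counts (percent) of each of the 127 members, in order along the locus from the end far from the Igkj segments, for WT and p52ki naive, activated and GC cells; points are group means. The naive profiles of the genotypes lie on each other, and in GC cells single segments such as Igkv8-30, Igkv4-57-1 (WT), Igkv4-68 and Igkv3-4 (p52ki) stand out.

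Use along the locus was stable in naive cells. The distal 42 members held 42.6% to 44.3% of Igkv counts, the middle 42 held 19.1% to 20.4% and the proximal 43 held 35.8% to 38.3%. Plus-strand members held 41.9% to 45.2% in naive and 43.9% to 49.9% in activated libraries, and 37.8% ± 3.48 in WT GC (SD, n = 3) and 42.3% ± 4.35 in p52ki GC cells (n = 2). The 3 WT GC libraries, at 34.6% to 41.5%, lay below all naive libraries, and of the p52ki GC libraries 1 lay below them (39.2%) and 1 above (45.4%). Naive and activated libraries overlap in WT and not in p52ki.

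Between genotypes no segment was called in naive or activated cells. In naive cells none was called (0% of all genes), and DESeq2 and limma voom called none. By edgeR, none had an unadjusted p under 0.05, where 80 of all 15352 genes did. The median p52ki minus WT difference was -0.10. In activated cells none was called (0.013% of all genes, 0.00651% in each direction). DESeq2 called none and limma voom 5, and the shares of all genes these called were not recorded. By edgeR, 6 of 108 members had an unadjusted p under 0.05, against 134 of all 15352 genes, and the median was -0.36. The smallest p-values there belonged to Igkv20-101-2, Igkv4-57-1 and Igkv4-91, each with an adjusted p of 1. Igkv4-57-1 stood at 131 ± 92.8 CPM in WT and 37.1 ± 14.9 CPM in p52ki, and Igkv4-91 at 162 ± 63 and 51.4 ± 18 CPM (SD, n = 3 each).

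In GC cells 24 members were higher and 1 lower in p52ki (23.1%, where 16% of all genes were called, 3.75% as higher and 12.2% as lower), with a median of 0.67 against -0.32 over all genes. As shares of Igkv counts, 12 were higher and 14 lower (16% of all genes called). Both p52ki libraries, but 1 of 3 WT libraries, are among those with few detected genes. With the GC groups fitted alone no member was called, and the share of all genes called in that fit was not recorded.

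Igkv12-38 had the largest fitted log2 difference, followed by Igkv3-3 (6.39, SE 1.28), which stood at only 4.98 CPM in p52ki and 0.0362 CPM in WT. Igkv12-38 stood at 0.385, 0 and 0.435 CPM in WT GC replicates 1, 3 and 4 and at 26.4 and 30.4 CPM in p52ki GC replicates 2 and 5, with 5.66 to 9.37 CPM in naive and 2.50 to 13.2 CPM in activated libraries. The groups did not overlap, and the log2 difference was 6.49 (SE 0.825, adjusted p = 0.000161). Igkv6-25 was at 4.36, 13.2 and 12.8 CPM in WT and 79.7 and 97.8 CPM in p52ki, a difference of 3.13 (SE 0.55, adjusted p = 0.00217). Its share of 1.36% and 1.81% in p52ki GC cells lay above the naive libraries and that of 0.254% to 0.58% in WT below them.

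Igkv13-85 differed by 4.16 (SE 0.679) and Igkv6-32 by 3.33 (SE 0.563), with no overlap. Igkv4-54 differed by 5.45 (SE 0.86), but 160 CPM came from replicate 2 and 12.1 CPM from replicate 5. Igkv3-4 differed by 3.35 (SE 0.948, adjusted p = 0.028) on 672 CPM in replicate 5 and 27.4 CPM in replicate 2, and without replicate 5 the difference was -0.33 (adjusted p = 0.797). The member called lower was Igkv4-58, at 9.49, 34.6 and 30.3 CPM in WT and 4.12 and 4.59 CPM in p52ki, a difference of -2.50 (SE 0.592, adjusted p = 0.013). Of the 25 calls, 10 remained in every fit that left out a single library.

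The change from activated to GC cells itself differed between genotypes for 10 members, all less negative or more positive in p52ki (9.26%, where 5.95% of all genes were called, 0.977% as higher and 4.97% as lower). As shares, 3 were higher and 5 lower (5.97% of all genes called). For the change from naive to activated cells no member was called by edgeR (0% of all genes), DESeq2 or limma voom. By edgeR, none had an unadjusted p under 0.05, where 65 of all 15352 genes did. Transcription factors known to act on kappa or other B cell genes were taken as a list of 18. Of these (such as Pou2af1, Spib, Irf4, Rela and Nfkb2) none was called between naive and activated cells (0.319% of all genes in WT, 0.117% in p52ki). Between genotypes in these stages none was called either (0% of all genes in naive, 0.013% in activated cells). These rates are too low for a lack of calls among 18 genes to set them apart. In WT 1 of the 18 was higher and 3 lower in GC than in activated cells (13.6% of all genes called). In p52ki none was higher and 4 were lower (25.6%). In GC cells 2 were higher and 1 lower in p52ki than in WT (16% of all genes called).

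The segments whose shares moved most like those of the leaders were found by Spearman's rho over the 17 libraries, given as a description, since shares in a library sum to 100% and libraries of a group are alike. Igkv1-135 was most like Igkv8-27 (0.821) and Igkv3-9 (0.765), and Igkv1-110 most like Igkv4-86 (0.804). Igkv4-57-1 was most like Igkv9-124 (0.765), Igkv3-4 most like Igkv3-5 (0.701), Igkv8-30 most like Igkv2-112 (0.598), and Igkv4-68 most like Igkv3-7 (0.596). Only Igkv3-4 had a nearest neighbour of its own family.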

How the data were processed

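RNA was taken from sorted cells, amplified from very low input without molecular identifiers and sequenced as read pairs, per the labels' protocols. The deposited table gives unnormalised read counts for each gene. The submitters' processing notes name HISAT2 2.1.0, featureCounts, Subread 1.6.2, SAMtools 1.8 and GRCm38. Not given in the sources used here are the annotation release, the strand setting and how reads with several matches were handled, which bears on near-identical V segments. Coordinates and sequences came from GENCODE release M21. No column of another series was in the table.

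Groups and replicate numbers came from the sample titles. Counts were kept by filterByExpr (15352 of 55536 genes, 108 of 127 members), scaled by TMM and fitted over all 17 libraries with 1 coefficient per group in edgeR 4.0.16 (R 4.3.3; glmQLFit robust, glmQLFTest), and p-values were adjusted by the Benjamini-Hochberg method within each of 9 contrasts. CPM are counts scaled to 1000000 per library on TMM-scaled totals. Shares are percent of summed Igkv counts in a library, and no test was made of the effective number. Alternatives were other size factors, DESeq2 1.42.0, limma 3.58.1 (voom with quality weights), no filter, shares in place of levels, the groups compared alone, single libraries left out, the 3 GC libraries with few detected genes left out or (chosen after seeing the data) compared alone, and a replicate block. The edgeR fits of levels and of shares were tested on counts simulated with the same spread for all genes and groups. Only activated against naive WT cells was tested, so this does not cover the GC comparisons, DESeq2 or limma voom. All pairs of libraries within a group differed beyond counting error (chi-square per degree of freedom 8.49 to 127 over genes).

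Deviations from the group mean in naive and activated libraries with the same number had r over genes of 0.108 to 0.359. Those with other numbers in the same genotype had -0.323 to 0.218, so the ranges overlap. Centring on the mean of a small group also pushes the latter down. The replicate block takes the numbers to pair libraries, which no label states and these values do not settle. Pairs of the same number with GC libraries ranged from -0.287 to 0.0878. Named segments were the 8 with the largest naive share, the leader of each library, in each contrast up to 6 called members per direction with the largest change among those with a group mean of at least 20 CPM (the 3 smallest p where none was called), the B-1 light chains, family 10 and the 3 nearest in share to each activated or GC leader; other names were added after their values were seen. Some marker genes of the lists and a segment sequence are not reported here, and the list values were computed without those genes. The members and lists were chosen with earlier results of these data known.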

Additional observations from a re-analysis of the deposited data

Results flagged for a closer look

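The change from activated to GC cells differed between genotypes for 10 members by a test of the difference itself (edgeR's quasi-likelihood test, adjusted p 0.00149 to 0.046); each value is the p52ki change minus the WT change on the log2 scale. The differences were 6.42 for Igkv12-38, 3.24 for Igkv14-100, 5.14 for Igkv4-54, 3.87 for Igkv13-85, 2.58 for Igkv3-5, 2.16 for Igkv1-117, 6.67 for Igkv3-3, 3.17 for Igkv6-32, 3.61 for Igkv13-84 and 2.48 for Igkv6-23. Igkv3-3 was at 4.98 CPM in p52ki GC and 0.0362 CPM in WT GC cells, near the limit of detection. Only Igkv12-38 and Igkv14-100 remained called whichever single library was left out, and 2 members were called with the replicate block, 2 with limma voom and 1 with the groups compared alone. Igkv14-100 was at 7.31, 10.4 and 9.35 CPM in WT GC and at 30.5 and 104 CPM in p52ki GC libraries. Both p52ki GC libraries are among those with few detected genes, and the part of this in the differences was not tested. No group had enough libraries for a search for outlying libraries.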

How the results depend on the processing

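Called members in activated against naive WT cells numbered 1, but 15 with DESeq2, 57 with limma voom, 8 with no filter, 22 with the groups compared alone, 36 without the GC libraries with few detected genes, 0 with the replicate block and 0 to 3 with single libraries left out; in p52ki they numbered 0, but 3, 29, 3, 26 and 10 in the first 5 of these settings. GC against activated in WT gave 48, but 92 with limma voom, 15 for shares, 7 with the groups alone, 87 without the libraries with few detected genes, 27 with the replicate block and 25 (without WT activated replicate 1) to 65 (without WT GC replicate 3) with single libraries left out. In p52ki it gave 19, but 1 with limma voom, 11 with the groups alone, 11 with the block and 11 (without p52ki activated replicate 2) to 30 (without p52ki GC replicate 5). Genotypes in activated cells gave 0, but 5 with limma voom and 1 without the libraries with few detected genes. Genotypes in GC cells gave 25, but 38 with DESeq2, 1 with limma voom, 0 with the groups alone, 14 between the libraries with few detected genes and 15 (without WT GC replicate 1) to 47 (without WT GC replicate 3). The difference of the GC change gave 10, but 21 with DESeq2, 2 with limma voom, 1 with the groups alone, 2 with the replicate block and 3 (without p52ki activated replicate 2) to 42 (without WT GC replicate 3). Apart from the fit for shares, the share of all genes called was not recorded in these other settings. The cause of these shifts was not tested. With the groups alone, 88 to 107 members were tested in place of 108. Where a group keeps 1 library, that library is assumed to vary like the other groups.

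The effective number differed by 0.357 between activated and naive p52ki cells per kilobase of exon, and by 5.75 between genotypes in the GC libraries with few detected genes. With single libraries left out, it ranged from -10.8 to -2.92 (GC against activated, WT), -14.2 to -9.07 (p52ki), -0.615 to 1.73 and -0.264 to 0.215 (activated against naive, WT and p52ki), and -0.514 to 1.29, -1.34 to 1.0 and -8.9 to -1.04 (genotypes in naive, activated and GC cells). Only Igkv3-4 among the named changes reversed, to -0.33 without p52ki GC replicate 5, and was 4.92 without WT GC replicate 3. No paired analysis was possible for the comparisons of genotypes, because nothing pairs a WT library with a p52ki library, and a number found in both genotypes does not make a pair. The lowest Igkv total, 8450 counts, puts a share of 0 below 0.0355%.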
